A study of Mus musculus with 24 samples.

Results

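Newborn neurons of the embryonic cortex switch on a shared set of genes for microtubules, growth cones, axon surfaces and synapses. The 39 genes described here were listed by name as pan-neuronal, axonal and synaptic genes and looked up in the deposited table; no value entered the rule, but the list was drawn up with earlier results of these data known. All 39 were found among 51912 genes of the table and all 39 passed a filter on low values that left 16454 genes for testing. The tissue was dissected archicortex, the medial edge of the embryonic cortex from which the hippocampus forms, of mice on a mixed C57BL/6J;MF1 background. Sox1Cre mutants (genotype Sox9fl/fl;Sox1Cre, Sox9 floxed on both alleles) and Sox1Cre controls (Sox9+/+;Sox1Cre) were collected at E12.5 and at E13.5, and NestinCre mutants (Sox9fl/fl;NestinCre) and NestinCre controls (Sox9+/+;NestinCre) at E13.5. Each of the 6 groups held 4 libraries, 24 in all, so mutants and controls of a line all carried the Cre and differed in the floxed alleles. Sox1Cre is a targeted allele of Sox1 that acts across the neural plate, and NestinCre is a transgene that acts later in neural progenitors and spares most of the neighbouring cortical hem. SOX9 is a transcription factor of neural stem cells and glia, and the study deleted it with both Cre lines to ask what it does in different parts of the archicortex. Replicates are numbered 1 to 24 across the series, as in the labels. Nothing in the labels says that each library came from a separate embryo, so p-values here measure the spread between these libraries.

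As background, a neuron that leaves the cell cycle replaces the cytoskeleton of its progenitor with neuronal tubulins, microtubule-associated proteins and intermediate filaments, and extends an axon guided by adhesion molecules of the immunoglobulin family. The machinery of transmitter release and the receptors opposite it are transcribed early, well before most synapses form. Outside neurons many of these genes are held off by REST, a zinc-finger repressor that binds a conserved element near their start sites, and the RNA-binding protein PTBP1 blocks neuronal splicing in progenitors.

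Values are read counts per gene that the authors divided by a size factor for each library, called normalized read counts below. The reads behind them summed to between 16163560 and 49445219 per library, with a median of 23016925. Changes are given on the scale of log2(normalized read count + 1), and a gene was called changed at an adjusted p under 0.05 over all 16454 genes (limma, Benjamini-Hochberg). The median standard error of a member's change between 2 groups was 0.24. In bulk tissue, fewer neurons and less RNA per neuron cannot be told apart.

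Some libraries stood apart. Sex, which the labels do not give, was read from Xist, at 3526 to 5934 normalized read counts in 11 XX libraries and at 0 to 6.41 in 13 XY libraries. All 4 Sox1Cre controls at E12.5 were XX and all 4 at E13.5 were XY, so sex and age cannot be told apart in the controls. The Sox1Cre mutants had 2 XX and 2 XY libraries at each age. NestinCre mutant replicate 18 had a mean of 4.93 on the log2 scale for 12 markers of the ventral telencephalon, against at most 2.85 in the other NestinCre mutants. Sox1Cre mutant replicate 1 had 5266 normalized read counts of Ttr, the leading gene of the choroid plexus, where the other Sox1Cre mutants at E13.5 had between 52673 and 70416.

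The targeted gene checked the labels. Sox9 was at 5218, 5912, 5449.6 and 5731 normalized read counts in the Sox1Cre controls at E13.5 and at 3563, 2828, 3384 and 3677 in the mutants. At E12.5 its values were 4391, 5265, 4237 and 4194 in controls and 2785, 1734, 2593 and 1928 in mutants. NestinCre controls had 5636, 4979, 4586 and 5406 and their mutants 3089, 2997, 3082 and 3369. No mutant library reached the lowest of its controls in any of these comparisons, with log2 changes of -0.74 ± 0.12 (SE), adjusted p = 0.0021 in Sox1Cre at E13.5, -1.02 ± 0.12 (SE), adjusted p = 6.28e-05 at E12.5 and -0.71 ± 0.12 (SE), adjusted p = 0.0297 in NestinCre. These counts cover the whole gene, including the first exon, which stays in the floxed allele after Cre acts, so they do not give the level left inside the deleted part.

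The members covered a wide range of levels. Per kilobase of exon, Tubb3, the neuronal beta-tubulin, led in the Sox1Cre controls at both ages, with 4494 normalized read counts per kilobase at E12.5 and 5500.1 at E13.5. Dpysl3, a collapsin response mediator of the growth cone, followed with 1286 and 2995, and Map2, the microtubule-associated protein of dendrites, with 770.0 and 947. At the other end stood Grin2b, an NMDA receptor subunit, with 0.985 and 6.12, Thy1, a surface glycoprotein of axons, with 1.44 and 3.63, and Nrxn3, a presynaptic adhesion molecule, with 2.71 and 2.99. The 3 highest members per length were thus cytoskeletal, and the 3 lowest receptor or surface genes.

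Between E12.5 and E13.5 most members rose. In the Sox1Cre controls 24 of 39 were called higher and 1 lower, where 6.33% of all genes tested were called higher and 5.17% lower (11.5% either way). The median member change was 0.63, a 1.55-fold rise, against a median of -0.00 for all genes tested. At E13.5 all 4 controls lay above all 4 at E12.5 for 22 members, a separation seen in 9.23% of all genes. In the Sox1Cre mutants 31 members were called higher and 1 lower, beside 13.8% and 12.1% of all genes (25.9% either way). Their median change was 1.01, a 2.02-fold rise, and 28 members had no overlap in that direction, beside 12.4% of all genes. Thy1, among the 31 and among both counts without overlap, passed the filter on low values through E13.5 libraries alone.

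**Figure D1:**
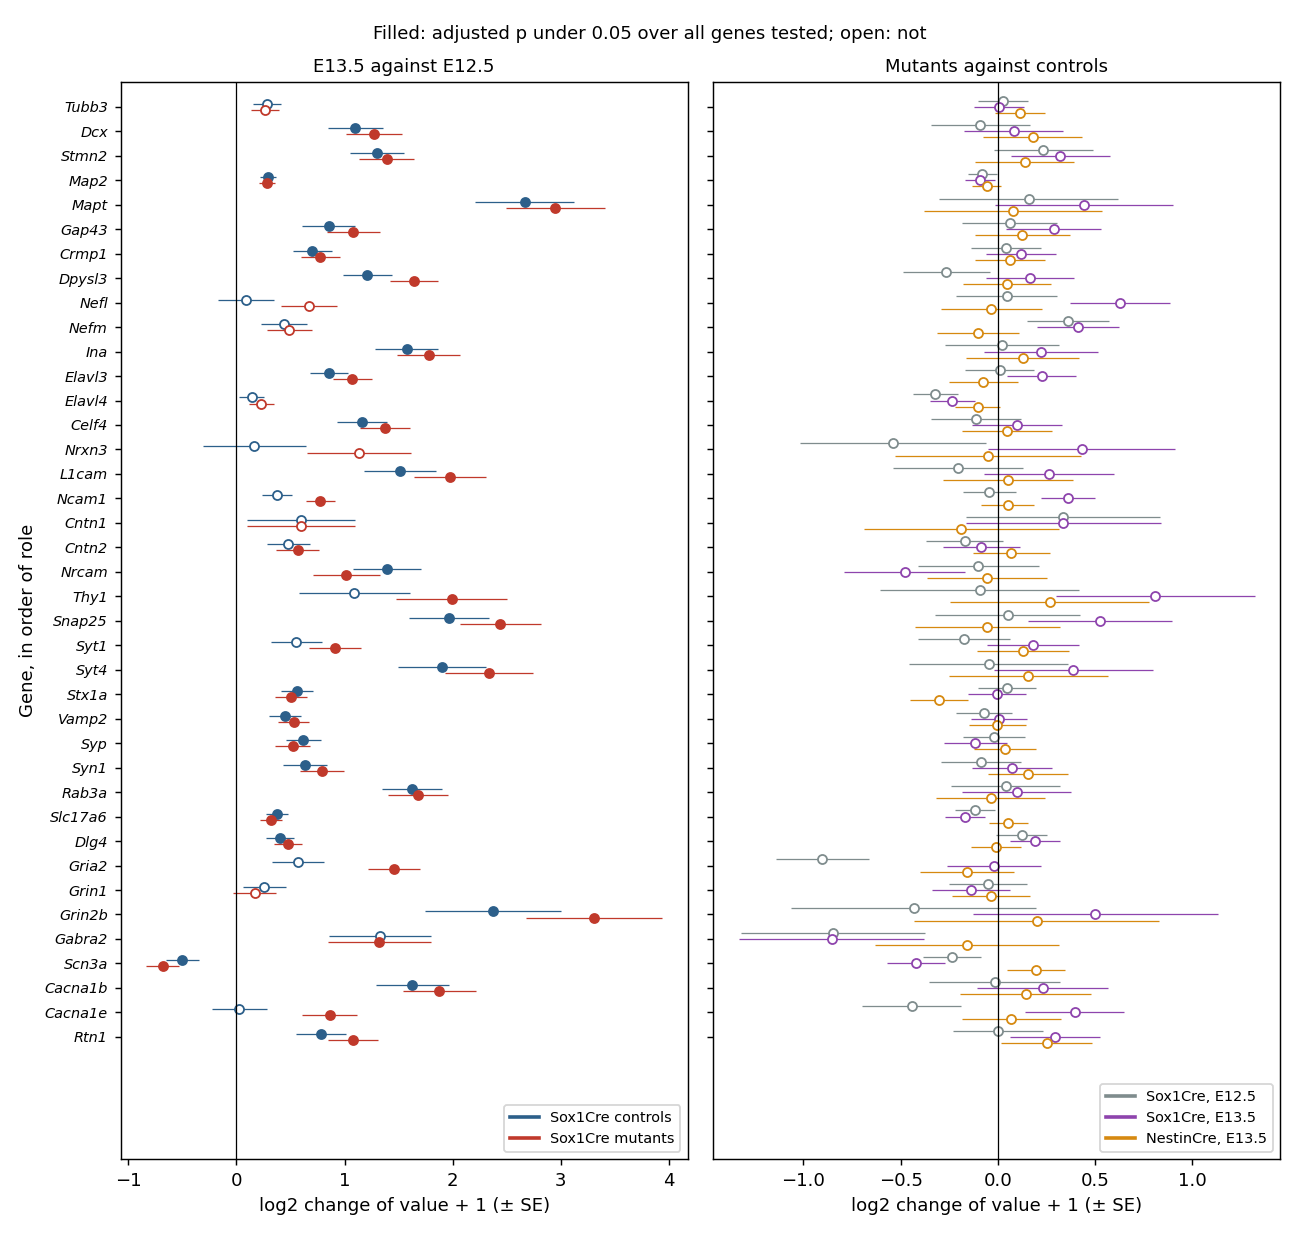
Log2 change (x axis, value + 1, bars ± SE) of each of the 39 genes (y axis, in order of role), from E12.5 to E13.5 in Sox1Cre controls and mutants on the left and in mutants against controls on the right; filled points passed adjusted p under 0.05 over all genes tested. On the left 25 control points and 32 mutant points are filled, all to the right of 0 but that of Scn3a, and on the right no point is filled.

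Cytoskeletal and growth cone genes rose together, 7 of 8 in both genotypes, Tubb3 being the one that did not pass. Mapt, which encodes tau (chr11:104231390-104332090, plus strand), rose most of them. Its normalized read counts were 165, 149.9, 162 and 112 in E12.5 controls and 425, 1589.8, 829.8 and 1322 in E13.5 controls, and 189, 165, 167 and 134 and 1774, 571, 928 and 2696 in the mutants of these ages. The lowest of these E13.5 libraries, control replicate 5, stood above the highest E12.5 library, and the E13.5 values spread far more widely. The change was 2.66 ± 0.46 (SE), adjusted p = 0.00261 in controls and 2.95 ± 0.46 (SE), adjusted p = 0.000265 in mutants.

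Dcx, a microtubule-binding protein of migrating neurons (chrX:143855842-143933311, minus strand), went from 3156, 3089, 2728 and 2521 to 3713, 8449, 5537 and 8156 in controls. The mutants went from 2709.6, 2666, 3156 and 2287 to 9473, 4368, 5091 and 8417. No E13.5 library of either genotype fell to the E12.5 level, and the changes were 1.10 ± 0.26 (SE), adjusted p = 0.00984 and 1.27 ± 0.26 (SE), adjusted p = 0.00146. Dpysl3 was at 10486, 8350.3, 7887 and 7276 in E12.5 controls and 15754, 23849, 17219 and 22334 at E13.5, with 8459, 6619, 8868 and 4858 and 28386, 15567, 19784 and 26192 in mutants. Both genotypes separated the ages completely for it (controls 1.21 ± 0.23 (SE), adjusted p = 0.00311; mutants 1.64 ± 0.23 (SE), adjusted p = 0.000165).

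Map2 (chr1:66175273-66442583, plus strand) rose by much less. Control values were 12825, 12176, 12878 and 12784 at E12.5 and 13821, 16767, 15000.2 and 16728 at E13.5, and mutant values 11851, 12589, 11895 and 11579.7 and 16017, 13222, 13773 and 15424. The ages did not overlap in either genotype, with changes of 0.29 ± 0.08 (SE), adjusted p = 0.0159 and 0.28 ± 0.08 (SE), adjusted p = 0.009. Stmn2, a microtubule regulator of growing axons, rose by 1.30 in controls and 1.39 in mutants, Gap43 of the growth cone by 0.85 and 1.08, and Crmp1, a relative of Dpysl3, by 0.70 and 0.78. Tubb3 (chr8:123411424-123422015, plus strand), the most abundant member per length, read 8488, 9256, 7786 and 8049.7 in E12.5 controls and 8694, 12264, 9489.9 and 10649 at E13.5, and 8314, 9110.3, 8559.7 and 8127 and 11930.5, 7762, 8874 and 13392 in mutants. Its ages overlapped in both genotypes, mutant replicate 2 at E13.5 being below every E12.5 mutant, and its changes of 0.28 ± 0.13 (SE), adjusted p = 0.161 and 0.27 ± 0.13 (SE), adjusted p = 0.133 did not pass.

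Of the 3 neuronal intermediate filaments, Ina (alpha-internexin) alone passed. Its values were 747, 627, 556 and 522 and 1114, 2622, 1705 and 2161 in controls of the 2 ages and 687, 697, 766 and 393 and 2407, 1448, 1827 and 3131 in mutants, without overlap, and its changes were 1.58 ± 0.29 (SE), adjusted p = 0.00311 and 1.78 ± 0.29 (SE), adjusted p = 0.000371. Nefl and Nefm, the light and medium neurofilament subunits, had changes of 0.09 (adjusted p = 0.867) and 0.44 (adjusted p = 0.184) in controls. In mutants their changes were 0.67 (adjusted p = 0.0605) and 0.49 (adjusted p = 0.0912), the ages of Nefm not overlapping there. Exons of Nefl and Nefm overlap on opposite strands, and those of Ina overlap Nt5c2, whose mean was 1678 normalized read counts. The counting is not stated to use strand, so reads of such pairs may not have been told apart.

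Among the RNA-binding proteins, Elavl3 rose by 0.86 in controls and 1.07 in mutants, and Celf4 by 1.16 and 1.37. Elavl4, of the same Hu family as Elavl3, did not pass in either, at 0.14 ± 0.12 (SE), adjusted p = 0.457 and 0.23 ± 0.12 (SE), adjusted p = 0.15. Of 7 adhesion and axon surface genes, L1cam and Nrcam rose in controls, by 1.51 and 1.39. In mutants 5 rose, the changes being 1.98 for L1cam, 1.01 for Nrcam, 0.78 for Ncam1, 0.57 for Cntn2 and 1.99 for Thy1. All E12.5 values of Thy1 were below the filter's 10, and it passed the filter through E13.5 libraries alone. Its rise with age is therefore partly set by the filter, and nothing is concluded from it. Thy1 was near the lower limit of detection, at 5.55, 2.43, 3.43 and 5.10 normalized read counts in E12.5 mutants and 15.5, 15.1, 12.9 and 40.1 at E13.5, where replicate 4 stood far above the others, and at 4.38, 5.21, 3.76 and 3.94 and 9.06, 18, 7.46 and 8.97 in controls. Nrxn3 and Cntn1, a contactin, passed in neither genotype. Cntn1 was uneven within groups, at 213, 1394, 1424 and 1171 in the E13.5 mutants, and its lowest value was in replicate 1, the library with the least Ttr. With the choroid plexus markers as a covariate its standard error across age in controls was 0.16 in place of 0.50 and its change -0.18 in place of 0.60 (adjusted p = 0.492), while the median ratio of the 2 standard errors over all members was 1.07. Cntn1 was picked after its values were seen, and the cause of its unevenness was not tested.

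Of the genes of vesicle release, 8 of 9 rose in controls and 9 of 9 in mutants. Snap25 (chr2:136713453-136782428, plus strand), a SNARE protein of vesicle fusion, was at 42.3, 37.8, 30.1 and 29.6 in E12.5 controls and 65.7, 204, 131 and 204 at E13.5. The mutants had 40.7, 35.6, 38.6 and 29.3 and 301, 104, 154 and 321. Every E13.5 library lay above every E12.5 library of its genotype, and the changes were 1.96 ± 0.37 (SE), adjusted p = 0.00351 and 2.44 ± 0.37 (SE), adjusted p = 0.000227. Rab3a, the small GTPase of synaptic vesicles, was at 220.3, 226, 204 and 193 and 424, 946, 599.7 and 740.4 in controls of the 2 ages, again without overlap, and its changes were 1.62 ± 0.28 (SE), adjusted p = 0.00261 and 1.68 ± 0.28 (SE), adjusted p = 0.000402; its exons overlap those of Mpv17l2 on the other strand, at a mean of 251.1. Syt4, a synaptotagmin, rose by 1.90 and 2.34.

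Smaller rises were seen for the SNARE partners and vesicle proteins. In controls they were 0.56 for Stx1a, 0.45 for Vamp2, 0.62 for Syp and 0.63 for Syn1, with 0.50, 0.53, 0.52 and 0.79 in mutants. Slc17a6, the vesicular glutamate transporter VGLUT2, rose by 0.37 and 0.32. Syt1 (chr10:108497650-109010982, minus strand), the calcium sensor of fast release, was at 249.5, 152, 182 and 185 in E12.5 controls and 215, 335, 259 and 322 at E13.5, and at 202, 206, 157 and 121 and 434, 261, 233 and 378 in mutants. Its ages overlapped in controls, through replicates 5 and 13, and not in mutants, with changes of 0.55 ± 0.24 (SE), adjusted p = 0.135 and 0.91 ± 0.24 (SE), adjusted p = 0.00775.

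**Figure D2:**
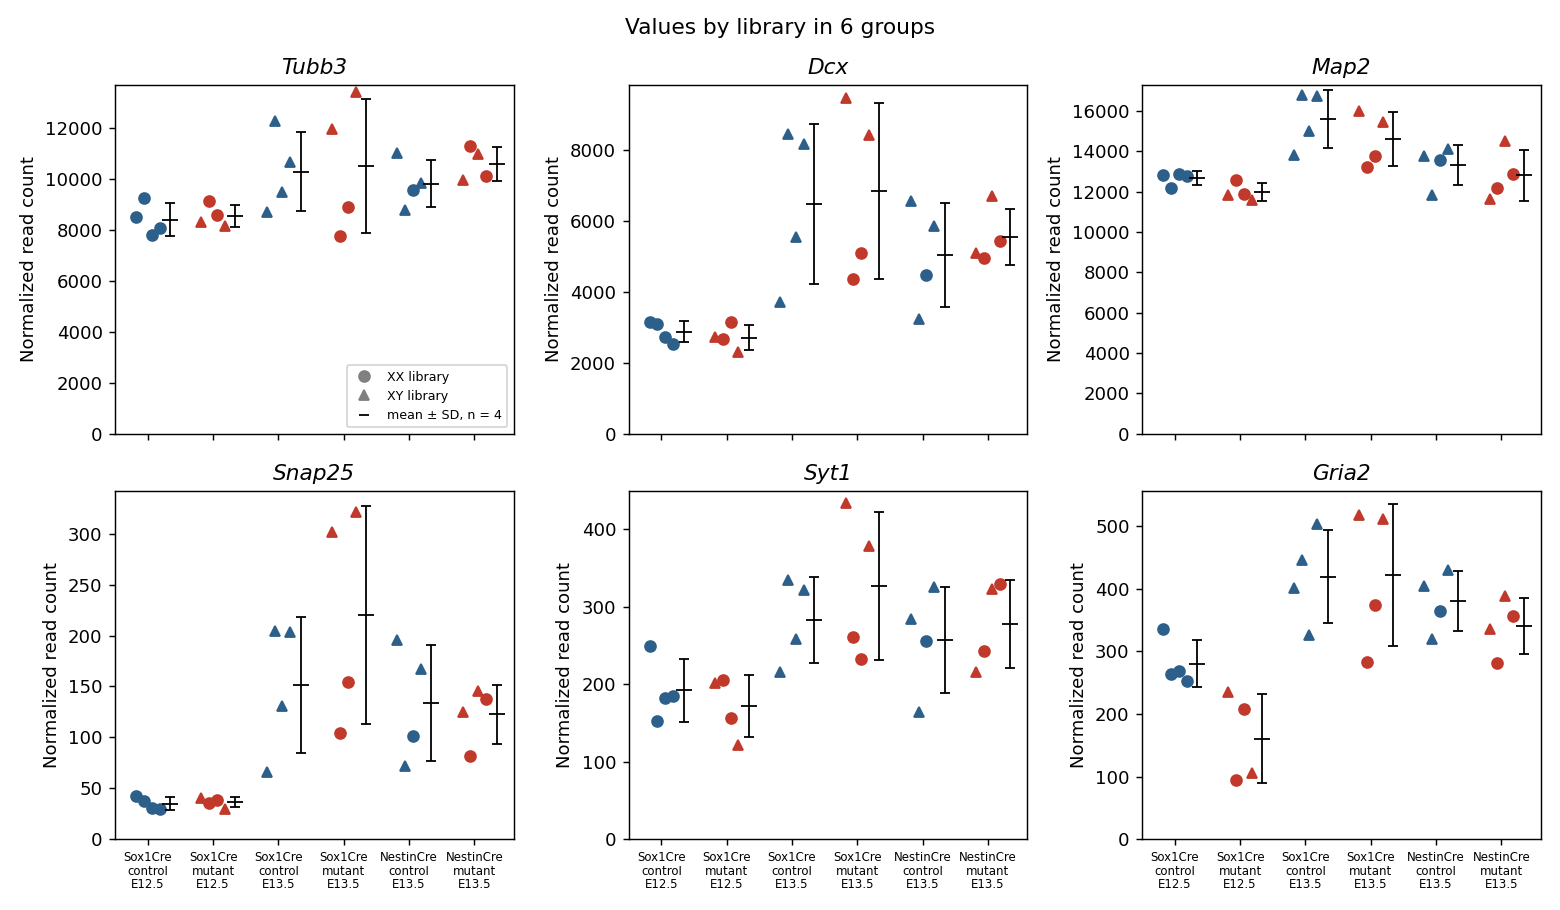
Normalized read counts (y axis, from 0) of Tubb3, Dcx, Map2, Snap25, Syt1 and Gria2 in every library by group (x axis), circles XX and triangles XY, blue controls and red mutants, with mean ± SD of 4 libraries in black. Dcx and Snap25 separate the 2 ages in the Sox1Cre groups, and Gria2 is lowest in the E12.5 mutants.

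Of 5 receptor and scaffold genes, 2 rose in controls and 4 in mutants. Grin2b was at 30.6, 22.2, 26.3 and 18.7 normalized read counts in E12.5 controls and 48.7, 267, 127 and 165 at E13.5, and at 34.5, 13.8, 10.3 and 19.1 and 333, 57.0, 130.2 and 445 in mutants. The ages were apart in both genotypes, although control replicate 5 and mutant replicate 2 came nearest to the E12.5 range, and the changes were 2.37 ± 0.63 (SE), adjusted p = 0.0194 and 3.30 ± 0.63 (SE), adjusted p = 0.00102. Dlg4, which encodes the scaffold PSD-95, rose by 0.41 and 0.47. Gria2, an AMPA receptor subunit (chr3:80681450-80802835, minus strand), had a change of 0.57 ± 0.24 (SE), adjusted p = 0.13 in controls and rose in mutants, by 1.45 ± 0.24 (SE), adjusted p = 0.000382. Gabra2, a subunit of the GABA-A receptor, was at 1.33 ± 0.47 (SE), adjusted p = 0.0733 in controls and 1.32 ± 0.47 (SE), adjusted p = 0.0448 in mutants, and Grin1, the obligate NMDA receptor subunit, passed in neither.

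Syn1 and Gria2 are shown by their promoters because both hold a close match to the REST element before their start site. Binding of REST was not measured. RefSeq promoters (GRCm38.p6, 250 bases before to 50 after a start site) were found for 25 of the 39 members, 42 sequences in all, and searched on both strands for the 9 letters of each arm of the element, TTCAGCACC and GGACAGNGC. The first arm stood without a mismatch in 1 member promoter, that of Syn1, and in 122 of all 32851 promoters (0.371%). The second stood in 1, that of Gria2, and in 629 of all (1.91%). A search for both arms 2 bases apart with at most 1 mismatch, added after the sequences were seen, found the same 2 members, each with 1 mismatch over 17 letters, and 8 of all 32851 promoters (0.0244%). As that search was set with these sequences known, nothing is concluded from its counts. The promoters of Syn1 (chrX:20920869-20921168, minus strand) and Gria2 (chr3:80802786-80803085, minus strand) are written 5′ to 3′ on the strand of the gene, with the 20 bases of the match in capitals.
Syn1: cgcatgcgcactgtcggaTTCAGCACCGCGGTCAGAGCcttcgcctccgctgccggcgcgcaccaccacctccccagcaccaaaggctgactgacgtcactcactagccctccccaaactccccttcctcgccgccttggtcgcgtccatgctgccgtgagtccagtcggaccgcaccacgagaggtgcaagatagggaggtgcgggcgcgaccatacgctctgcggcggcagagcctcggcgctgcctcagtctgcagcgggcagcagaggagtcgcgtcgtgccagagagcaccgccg
Gria2: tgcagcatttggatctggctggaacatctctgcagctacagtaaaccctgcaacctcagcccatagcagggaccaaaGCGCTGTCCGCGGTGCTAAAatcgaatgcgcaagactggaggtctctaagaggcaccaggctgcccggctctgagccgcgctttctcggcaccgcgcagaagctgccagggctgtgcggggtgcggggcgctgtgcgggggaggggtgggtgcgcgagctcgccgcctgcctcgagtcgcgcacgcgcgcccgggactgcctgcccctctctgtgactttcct
The Syn1 match starts 232 bases before the start site, on the strand of the gene, and the Gria2 match starts 173 bases before it and lies on the other strand. Syn1 was at 350.2, 288, 261 and 278 in E12.5 controls and 310.3, 562, 439.9 and 552 at E13.5, with the ages overlapping through replicates 5 and 13; its exons overlap those of Araf on the other strand, at a mean of 743.0 normalized read counts.

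Scn3a, a sodium channel of embryonic neurons, was the member that fell. Its values were 835, 813, 1044 and 1033 in E12.5 controls and 617, 551, 724 and 740.4 at E13.5, and 723, 785, 709.8 and 941 and 446, 519, 470.2 and 522 in mutants. All E13.5 libraries were below all E12.5 libraries of their genotype, with changes of -0.50 ± 0.15 (SE), adjusted p = 0.0348 and -0.68 ± 0.15 (SE), adjusted p = 0.0026. The N-type calcium channel gene Cacna1b rose, by 1.63 in controls and 1.87 in mutants, while the R-type gene Cacna1e was at 0.02 ± 0.25 (SE), adjusted p = 0.966 in controls and 0.86 ± 0.25 (SE), adjusted p = 0.0161 in mutants. Rtn1, a reticulon of the endoplasmic reticulum, rose by 0.78 and 1.08.

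The 25 members called in controls were all among the 32 called in mutants, and the 7 called in mutants alone were Ncam1, Cntn2, Thy1, Syt1, Gria2, Gabra2 and Cacna1e. The test of the difference itself, whether the mutant change differed between the ages, called none of the 39 members (limma, 0.0% of all genes; 2 members at an unadjusted p under 0.05, beside 7.4%, and none by edgeR or DESeq2), so the 2 genotypes are not shown to differ. The point estimate of the change was larger in mutants for 30 of 39, beside 49.2% of all genes. Controls went from XX to XY between the ages while mutants held both sexes at each, so sex enters this difference. Calls in controls were fewer over all genes under some settings, and the members followed. Without replicate 6 the members called were 13, beside 4.83% of all genes, and without replicate 8 they were 14, beside 5.3%. When log2 Xist entered the fit no gene at all was called (0.0% of all genes, and none of the members), and the median member change was 0.50.

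Splitting the mutants by sex, a step added after the data were seen, gave different counts in XX and XY libraries. Among XY libraries, 2 of each age, 34 members were called higher and 1 lower, with a median of 1.39, where 24.2% of all genes were called. Among XX libraries, also 2 of each age, none was called by limma, the one tool run on this split, with 18 at an unadjusted p under 0.05 (17.7% of all genes), 35 of 39 above 0 and a median of 0.46, where 0.182% of all genes were called. The change was larger in XY libraries for 36 of 39 members, by a median of 0.87. Tested directly, that difference passed for none of them (limma, lowest adjusted p = 0.306, for Tubb3; 17 at an unadjusted p under 0.05, beside 2223 of all 16454 genes; 0.0243% of all genes called). The mean of 9 erythroid markers moved with the split, at 11.42 and 11.11 in the XY and 12.30 and 12.04 in the XX mutants of E13.5. So did the mean of 9 meningeal markers, at 9.46 and 9.97 in the XY and 10.51 and 10.29 in the XX mutants. Means of intermediate progenitor genes were higher in the XY mutants, at 10.29 and 10.23 against 9.71 and 9.91. Those of radial glia genes were too, at 12.16 and 12.09 against 11.93 and 11.945. The part of these lists was not tested.

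**Figure D3:**
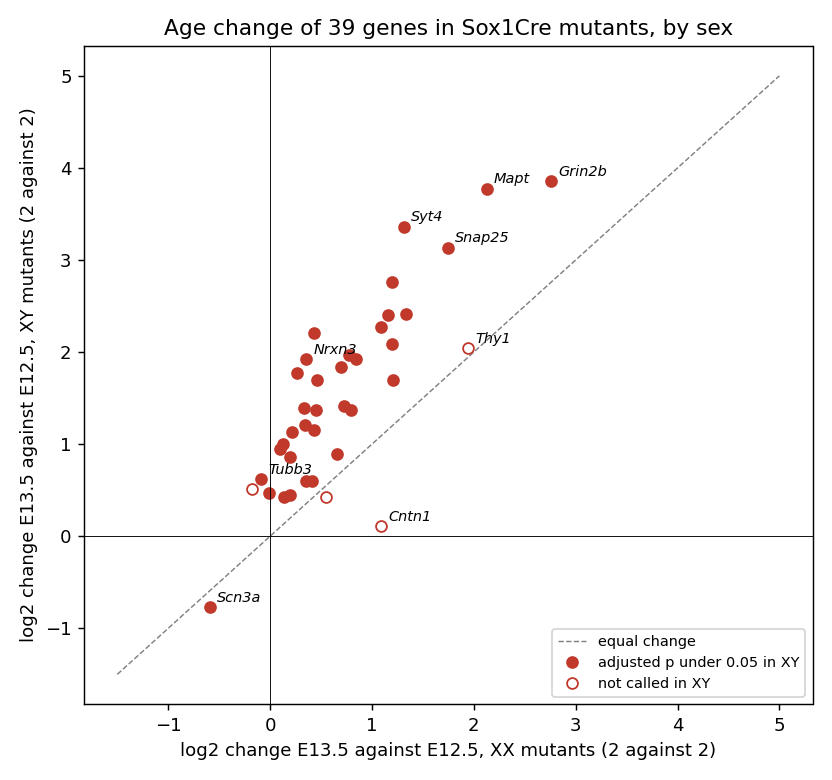
Log2 change from E12.5 to E13.5 of the 39 genes in XX Sox1Cre mutants (x axis) and in XY Sox1Cre mutants (y axis), 2 libraries an age on each axis; filled points passed adjusted p under 0.05 in the XY libraries and the dashed line marks equal change. 36 points lie above the line, with Grin2b and Mapt farthest from 0 on the y axis.

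At E13.5 the members moved up and down together between libraries of 1 group. The mean of the 39 genes on the log2 scale ran from 8.90 to 10.15 over the 16 libraries of E13.5 and from 8.31 to 8.82 over the 8 of E12.5, so every E13.5 library was above every E12.5 library. Within the Sox1Cre mutants of E13.5 the means were 9.88, 9.19, 9.44 and 10.15, and within their controls 9.07, 9.86, 9.45 and 9.72. The 2 highest mutants, replicates 1 and 4, were the XY ones, while the controls, which spread nearly as far, were all XY. Replicate 4 held the highest value of its group for 29 members and replicate 2 the lowest for 32. Among the controls replicate 6 was highest for 28 and replicate 5 lowest for 31, among NestinCre controls replicate 21 was highest for 28 and replicate 22 lowest for 33, and among NestinCre mutants replicate 19 was highest for 26 and replicate 18 lowest for 29. At E12.5 mutant replicate 12 was lowest for 25 and replicate 10 highest for 12. E12.5 control replicate 13 was highest for 22 and replicate 16 lowest for 18. Shares over all genes were not computed for these counts. The median within-group SD of a member was 0.362 at E13.5, against 0.179 for all genes tested, and 0.225 at E12.5, against 0.144.

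Erythroid markers ran the other way. The mean of 9 erythroid genes was 11.11 in mutant replicate 4 and 11.51 in control replicate 6, the libraries with the highest member means of their groups. It was 12.30 in replicate 2, 12.58 in replicate 5 and 12.76 in replicate 22, all with low member means, and 12.80 to 13.11 over the 8 libraries of E12.5, above all 16 of E13.5. Replicate 18 was low for the members at 12.04, inside the range of its group. From E12.5 to E13.5, 6 of the 9 erythroid genes fell in controls, and 5 fell and 1 rose in mutants, led by the embryonic globin gene Hbb-bh1 (-3.20 ± 0.63 SE in controls, adjusted p = 0.00428; -5.02 ± 0.63 in mutants, adjusted p = 0.000107), and Hbb-y was the most abundant. Erythroid genes made up 0.823% to 1.001% of all normalized counts at E12.5 and 0.333% to 0.823% at E13.5. Meningeal markers were also higher in several libraries with low member means. The mean of 9 meningeal genes, led by Col3a1, was 10.51 in replicate 2 and 9.97 in replicate 4, 10.47 in replicate 5 and 10.16 in replicate 6, 10.31 in replicate 18 and 9.87 in replicate 19, and 10.43 in replicate 22 and 10.28 in replicate 21. The part of either list in the members' rise or spread was not tested.

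**Figure D4:**
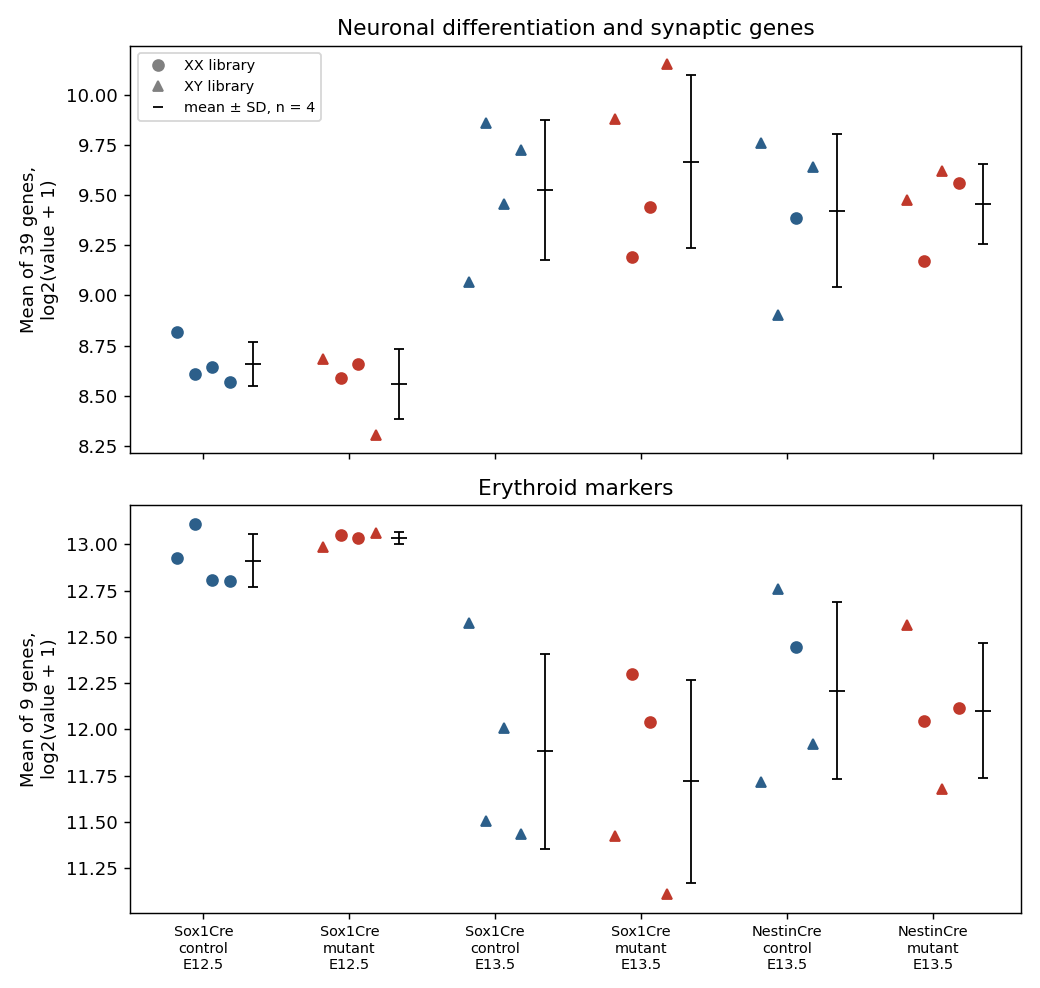
Mean log2(value + 1) per library (y axes) of the 39 genes (top) and of 9 erythroid markers (bottom) in the 6 groups (x axis), circles XX and triangles XY, with mean ± SD of 4 libraries in black. The 39-gene means of all 16 E13.5 libraries, from 8.90 to 10.15, lie above those of all 8 E12.5 libraries, and the erythroid means of the same 16, from 11.11 to 12.76, lie below those of all 8, from 12.80 to 13.11.

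**Figure D5:**
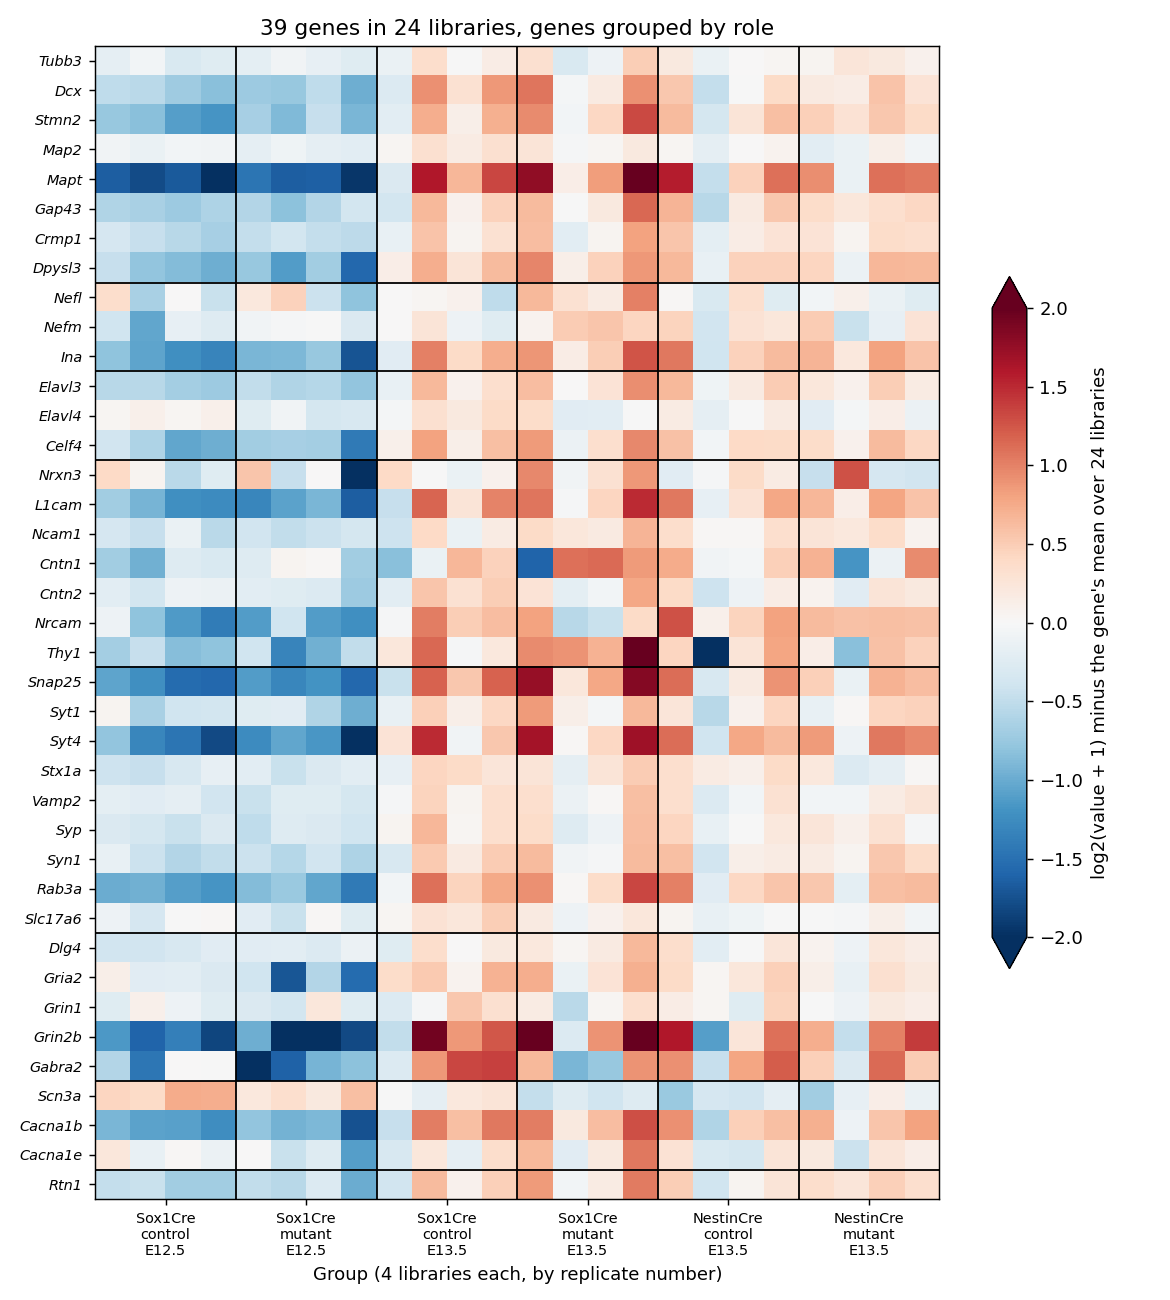
Log2(value + 1) of each of the 39 genes (rows, lines between roles) in 24 libraries (columns, 4 a group), minus the gene's mean over all libraries, red above and blue below and capped at 2 either way. The 8 columns of E12.5 are mainly blue and the 16 of E13.5 mainly red, Scn3a runs opposite, and replicates 5 and 22, the first control of Sox1Cre and the second of NestinCre at E13.5, are paler than their groups.

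Between mutants and controls no member passed the test, at either age or with either Cre. In Sox1Cre mutants against controls at E13.5, none of 39 was called (limma; none by edgeR or DESeq2; 3 at an unadjusted p under 0.05, beside 11.7% of all genes), where 0.924% of all genes tested were. The median member change was 0.18, and 28 of 39 were above 0, beside 48.6% of all genes. The 4 with the smallest unadjusted p on the higher side were Ncam1, Nefl, Nefm and Thy1. Nefl was at 90.6, 92.8, 95.9 and 62.8 in controls and 142, 112, 101 and 182 in mutants, every mutant above every control, with a change of 0.63 ± 0.26 (SE), adjusted p = 0.337 and an exact two-sided permutation p of 0.0286, the smallest that 4 against 4 allow. Nefm had 190.3, 228, 178 and 160.1 and 199.9, 272, 280.3 and 256, which overlapped through replicates 1 and 6 (change 0.41 ± 0.21 (SE), adjusted p = 0.465), and Ncam1, the neural cell adhesion molecule, 1581, 2754, 1913 and 2353 and 2734, 2441, 2377 and 3351, which overlapped too (change 0.36 ± 0.14 (SE), adjusted p = 0.281). Thy1 had a change of 0.81 ± 0.51 (SE), adjusted p = 0.581.

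On the lower side stood Scn3a, Elavl4, Gabra2 and Slc17a6. Scn3a was at 617, 551, 724 and 740.4 in controls and 446, 519, 470.2 and 522 in mutants, with no overlap and a change of -0.42 ± 0.15 (SE), adjusted p = 0.232. Gabra2 was at 676, 1481, 2054 and 2092 and 1278, 430.0, 481 and 1514, 2 mutants being within the control range and 2 below it (change -0.86 ± 0.47 (SE), adjusted p = 0.518). Elavl4 had a change of -0.23 ± 0.12 (SE), adjusted p = 0.444, and Slc17a6 one of -0.17 ± 0.10 (SE), adjusted p = 0.552. With libraries weighted by their quality, Elavl4 and Gabra2 were called lower (log2 change -0.41, adjusted p = 0.0131; and -1.54, adjusted p = 0.0383) and the median of the members was -0.07, where 5.85% of all genes were called under that setting, so 2 of 39 is near the share over all genes. Among the XY libraries alone, 2 mutants and 4 controls, 34 of 39 members were above 0 with a median of 0.51; none was called by limma, where 0.608% of all genes were, and 16 were at an unadjusted p under 0.05, beside 14.2% of all genes. In the 2 XY mutants erythroid means were 11.42 and 11.11, below the 11.43 to 12.58 of the controls, and meningeal means 9.46 and 9.97, below 10.09 to 10.47; their part was not tested.

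At E12.5 the Sox1Cre mutants had no member called either (limma; none by edgeR or DESeq2; 2 at an unadjusted p under 0.05, where 2217 of all 16454 genes were), beside 0.723% of all genes, and a median of -0.05 with 25 of 39 below 0. That median ran from -0.09 to -0.00 with 1 library left out and from -0.14 to -0.04 under the other settings. The nearest was Gria2. Its 4 control values were 336, 265, 269 and 253 and its mutant values 235, 94.7, 208 and 106, every mutant below every control, for a change of -0.90 ± 0.24 (SE), adjusted p = 0.0827, with a 95% interval of -1.41 to -0.40 and an exact two-sided permutation p of 0.0286. It passed without replicate 9 (-1.12, adjusted p = 0.0305) and without replicate 11 (-1.06, adjusted p = 0.0446), where 0.523% and 0.845% of all genes were called. At E13.5 the same gene was at 402, 447, 327 and 503 in controls and 518, 283, 375 and 511 in mutants, which overlapped (change -0.02 ± 0.24 (SE), adjusted p = 0.992), and the difference between the ages was 0.88 ± 0.34 (SE), adjusted p = 0.61.

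Elavl4 was next, at 2670.3, 2807, 2688 and 2804 in controls and 2197, 2478, 2039 and 2086 in mutants without overlap (change -0.32 ± 0.12 (SE), adjusted p = 0.223), followed by Gabra2 (-0.85 ± 0.47 (SE), adjusted p = 0.45) and Cacna1e (-0.44 ± 0.25 (SE), adjusted p = 0.459). Elavl4 was called at E12.5 when libraries were weighted (-0.33, adjusted p = 0.0398), where 3.51% of all genes were. The 4 nearest on the higher side were Nefm (0.36 ± 0.21 (SE), adjusted p = 0.47), Dlg4 (0.12 ± 0.13 (SE), adjusted p = 0.726), Stmn2 (0.23 ± 0.25 (SE), adjusted p = 0.731) and Cntn1 (0.33 ± 0.50 (SE), adjusted p = 0.816). Among XX libraries alone, 2 mutants and 4 controls, no member was called (limma; 2 at an unadjusted p under 0.05, beside 8.02%; 0.267% of all genes called) and the median was 0.04. The other members closest to differing between the ages were Cacna1e (0.84 ± 0.36 (SE), adjusted p = 0.63) and Ncam1 (0.40 ± 0.19 (SE), adjusted p = 0.668).

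NestinCre mutants had no member called (limma, and none by edgeR or DESeq2), where 0.0669% of all genes were. None was at an unadjusted p under 0.05 (limma), beside 6.47% of all genes. The median was 0.05 (-0.12 to 0.15 with 1 library left out), and the changes ran from -0.30 to 0.27. Stx1a, a SNARE protein of the presynaptic membrane, came closest, at 139, 122, 117 and 143 in controls and 127, 90.3, 96.2 and 110.5 in mutants (change -0.30 ± 0.15 (SE), adjusted p = 0.784). Tubb3 was at 11004, 8767, 9571 and 9844 in controls and 9936, 11294, 10949 and 10106 in mutants, Dcx at 6545, 3240.5, 4474 and 5864 and 5087, 4964, 6694 and 5416, and Snap25 at 195, 71.7, 102 and 167 and 125, 81.5, 146 and 138. Map2 had 11837 to 14092 in controls and 11641 to 14522 in mutants, Syt1 164 to 325 and 216 to 329.5, and Gria2 320.2 to 431 and 281 to 388. For all 6 of these genes the groups overlapped.

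The effect of the mutation was not shown to differ between the Cre lines for any member (limma; none by edgeR or DESeq2; 1 at an unadjusted p under 0.05, beside 8.27%; 0.0425% of all genes called). Scn3a was the nearest, with a difference of -0.62 ± 0.21 (SE), adjusted p = 0.345, being lower in Sox1Cre mutants and at 0.20 in NestinCre mutants. Its control levels also set the lines apart, at 617, 551, 724 and 740.4 in Sox1Cre and 371, 492, 479 and 550.0 in NestinCre controls, without overlap (difference 0.48 ± 0.15 (SE), adjusted p = 0.226). Between the 2 sets of E13.5 controls none of the 39 was called (limma; none by edgeR or DESeq2; 3 at an unadjusted p under 0.05, the others being Slc17a6 and Map2, beside 1652 of all 16454 genes; 0.243% of all genes called), and the median was 0.08 (-0.09 to 0.23 with 1 library left out).

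Rest did not pass across age in either genotype. It averaged 1364 normalized read counts in E12.5 controls and 1268 at E13.5, for a change of -0.10 ± 0.08 (SE), adjusted p = 0.462, and 0.06 ± 0.08, adjusted p = 0.615, in mutants. Ptbp1 was at -0.07 ± 0.06, adjusted p = 0.433, in controls and fell in mutants, by 0.19 on the log2 scale (SE 0.06, adjusted p = 0.0143). Its neuronal relative Ptbp2 had -0.16 ± 0.06, adjusted p = 0.12, and 0.13 ± 0.06, adjusted p = 0.14, and Srrm4, a splicing factor of neuronal microexons, 0.39 ± 0.17, adjusted p = 0.135, and 0.41 ± 0.17, adjusted p = 0.0735. Across age 6.33% of all genes tested were called higher and 5.17% lower in controls, and 13.8% and 12.1% in mutants, and all list counts across age stand against these shares. Of 13 repressor genes, 2 fell in controls (Kdm5c and Rcor1), and in mutants 1 rose (Hdac2) and 4 fell. Kdm5c is on the X chromosome and escapes its inactivation, and the 2 ages of controls differ in sex. Age and sex cannot be told apart for its fall, nor for any other call across age in controls.

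Some other neuronal genes of the same roles also rose with age. Of 111 tested in 6 further lists, 41 rose and 1 fell in controls, with a median of 0.39, and 59 rose and 7 fell in mutants, with a median of 0.47. Vesicle release led again, 12 of 24 rising in controls and 18 of 24 in mutants, among them Syn2 (2.27 and 2.77), of the synapsin family of Syn1. Cytoskeletal genes followed with 8 and 12 of 19, such as Stmn3 (1.21 and 1.23), receptors with 6 and 11 of 23, such as the GABA-A subunit gene Gabrb1 (1.52 and 1.31), and channels with 6 and 8 of 18, such as Scn3b (1.51 and 1.91). In mutants 1 receptor gene and 2 channel genes fell. RNA-binding genes had 3 and 4 of 11, with Rbfox3 at 1.01 and 1.25, and adhesion genes 6 and 6 of 16, with 1 and 4 falling, Cntnap2 in both (-0.53 and -0.65).

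Transcription factors of postmitotic and pyramidal neurons rose as well, 12 of 20 in controls and 16 of 20 in mutants, led by Neurod6 at 2.97 and 3.62. Between mutants and controls these neuronal lists, 131 genes tested, had 2 calls in Sox1Cre at E13.5, beside 0.924% of all genes, both lower in mutants, for the potassium channel gene Kcnd2 (-0.91) and the transcription factor gene Nhlh1 (-0.69). By DESeq2 they had 4 calls, beside 2.18% of all genes. By limma 16 were at an unadjusted p under 0.05, beside 11.7%. In NestinCre mutants they had none by limma, edgeR or DESeq2, and by limma 6 at an unadjusted p under 0.05, beside 6.47% of all genes. In Sox1Cre mutants at E12.5 they had none by limma or edgeR and 3 by DESeq2, beside 1.79%. By limma 21 were at an unadjusted p under 0.05, beside 2217 of all 16454 genes. Outside them the calls by limma in Sox1Cre mutants at E13.5 were Vim (-0.26) of radial glia and Ebf3 (-0.32) of Cajal-Retzius cells. At E12.5 they were Neurod4 (1.71) and Rrm2 (-0.42) of the intermediate progenitor list. None of that list was called by limma at E13.5, where the paper, using DESeq2, reports Neurod4 as higher in Sox1Cre mutants.

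Markers of progenitors and of other cells were also counted across age. Of 12 radial glia genes, 1 fell in controls (Prom1), and 6 rose and 3 fell in mutants, with medians of 0.10 and 0.11. The 12 genes of intermediate progenitors, which divide to give neurons, had 3 rising and 2 falling in controls, Eomes at 0.79 and Dll1 at -0.29, and 2 and 2 in mutants. Among 9 genes of Cajal-Retzius cells, early neurons of the cortical surface and hem, Reln (1.04 and 1.06) and Calb2 (1.52 and 1.65) rose in both genotypes while Trp73, Lhx5 and Ebf3 fell in mutants. In the meninges list 2 of 9 rose in controls, and 2 rose and 4 fell in mutants.

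The lists for ventral telencephalon, diencephalon and peripheral sensory neurons had few genes expressed enough to test. Of 12 ventral telencephalon genes 6 were tested, and Npy alone rose, by 3.96 in controls and 2.25 in mutants. Of 10 peripheral sensory neuron genes 4 were tested, and Prph, a neuronal intermediate filament, alone rose, by 3.28 and 4.03. Of 8 diencephalon genes 2 were tested, of which none passed in controls and 1 rose and 1 fell in mutants. Choroid plexus genes, 8 tested of 9 and led by Ttr, had no call in controls and 2 rising and 1 falling in mutants. Endothelial and pericyte genes had 1 of 9 rising in both, Rgs5, and microglial genes none of 8. With choroid plexus markers as a covariate the members called across age were 24 in controls and 32 in mutants, beside 15.1% and 32.4% of all genes, with medians of 0.68 and 1.09; the part of the other lists was not tested.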

How the data were processed

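RNA from dissected archicortex was made into libraries with the KAPA mRNA HyperPrep kit and sequenced on an Illumina HiSeq instrument, per the labels and the study's methods. The authors trimmed reads with Trimmomatic 0.36, aligned them with STAR 2.5.2a, estimated gene counts with RSEM 1.2.31 (Ensembl GRCm38, release 89) and deposited signal values, counts divided by DESeq2 1.20.0 size factors. A strand setting is not given in the sources used here. The deposited values were whole multiples of 1 read in 100% of cases (tolerance 0.01 read), which gave back the reads for the count tests and the depth of 16163560 to 49445219 reads a library; precision at a given level follows this depth.

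The 39 members and all gene lists were chosen with earlier results of these data known. One mean per group was fitted by limma 3.58.1 (R 4.3.3, trend) to log2(value + 1) in 24 libraries, 6 groups of 4, with 18 residual degrees of freedom. Genes at 10 or more in at least 4 libraries were kept (16454 of 51912), and p-values were adjusted over all of them by Benjamini-Hochberg at 0.05. Single members also had exact two-sided permutation tests over 70 splits. No replicate of a group matched another within counting noise: over 36 pairs the lowest chi-square per degree of freedom was 8.24.

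Per-library values are given for Tubb3, Dcx, Map2, Snap25, Syt1, Gria2 and members among the 4 smallest unadjusted p in each direction of a comparison; values of other members, among them Cntn1 and Grin2b, were picked after they were seen. Genes of other lists were named from the smallest adjusted p among calls. Alternatives were other pseudocounts and filters, quantile normalization, edgeR 4.0.16, DESeq2 1.42.0, array weights, log2 Xist or choroid plexus covariates, the compared libraries alone and each library left out. Fits within a sex were added after the data were seen. The limma, edgeR and DESeq2 steps were tested on simulated data. Gene positions and exon lengths came from GENCODE M21 (GRCm38). Python 3.11.15 with scipy 1.17.1 and matplotlib 3.10.9 did the rest.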

Additional observations from a re-analysis of the deposited data

Results flagged for a closer look

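In 9 of 240 sets of 4 libraries (39 members and their mean in 6 groups; 3.75%), 1 library lay far from the other 3; chance alone gives about 1 in 20. Map2 was at 12176 normalized read counts in Sox1Cre control replicate 14 at E12.5, with the other 3 at 12784 to 12879. Nefl was at 62.8 in Sox1Cre control replicate 8 at E13.5, against 90.6 to 95.9. In Sox1Cre mutant replicate 12 at E12.5, Celf4 was at 150.0 against 248 to 256, and Cntn2 at 2563 against 3513 to 3671. Nrcam was at 354 in Sox1Cre mutant replicate 10 at E12.5, against at most 215 in the others. Thy1 was high in 2 libraries of E13.5, at 40.1 in Sox1Cre mutant replicate 4 (others 12.9 to 15.5) and at 18 in Sox1Cre control replicate 6 (others 7.46 to 9.06), the libraries with the highest mean of the 39 genes in their groups. In NestinCre mutant replicate 18, the library with raised ventral telencephalon markers, Nrxn3 was at 86.5 against 25.1 to 27.5, and Rab3a at 384 against 639 to 681.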

How the results depend on the processing

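The counts of called members kept within 1.5 times of 25 (controls) and 32 (mutants) across age under both pseudocounts, both filters, quantile normalization, the compared libraries alone, edgeR, DESeq2, array weights and the choroid plexus covariate. With log2 Xist as a covariate the control count was 0, as was the count over all 16454 genes, and among XX mutants alone the mutant count was 0. Leaving out each library gave 13 to 27 calls in controls, the low end without replicates 6 and 8, where calls over all genes fell from 1892 to 794 and 872, and 23 to 33 in mutants. Between Sox1Cre mutants and controls, array weights gave 2 calls at E13.5 and 1 at E12.5, beside 5.85% and 3.51% of all genes, where the count was otherwise 0, but for 0 to 1 with each library left out at E12.5 (Gria2, without replicate 9 or 11). The cause was not tested. In the 4 other comparisons no alternative called a member. The median member change in Sox1Cre mutants at E13.5, 0.18, ran from -0.07 (array weights) to 0.25 under the settings with all libraries, and from -0.00 to 0.31 with 1 library left out. No paired analysis was possible because no replicate number is shared between groups. Age was measured across sexes in controls, 4 libraries a group limit the size of change that can pass, and genes at a few reads, such as Thy1, are the least precise.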
